A study of Mus musculus with 18 samples.

Results

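The 38 genes described here encode the enzymes by which the liver breaks down amino acids and turns the released nitrogen into urea. They are the rows of the deposited liver RNA-seq table, 38 of 19057 genes, whose symbol is in a list of urea cycle and amino acid catabolism enzymes, and all 38 were present. By role, 6 belong to the urea cycle, 6 to glutamine, glutamate and aminotransferase metabolism, 9 to tyrosine and tryptophan breakdown, 7 to the breakdown of serine, glycine, proline, lysine and histidine, 4 to branched-chain amino acids, and 6 to methionine and sulfur metabolism. The study treated mice with a high-fat diet and STZ (streptozotocin, a compound that destroys pancreatic beta cells). It asked whether transferred gut microbiota from donors given AOS (alginate oligosaccharide) improved their semen quality, and also transferred microbiota from control donors. Liver RNA-seq was among its several assays. The series holds 18 liver libraries from ICR mice of 10 weeks of age, in 6 groups of 3.

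Con is the control group. HS mice received the high-fat diet and STZ. A10-FMT mice were HS mice that were also given intestinal microbiota from donors dosed with AOS at 10 mg/kg, and Con-FMT mice were HS mice given microbiota from control donors. HS+A10 (high-fat diet, STZ and AOS 10 mg/kg) and A10 (AOS 10 mg/kg alone) are known from their labels, which do not say how or for how long AOS was given. The study's methods describe the mice of the first 4 groups as male, and the donor microbiota of each kind as 1 pool, so that the animals of a transfer group shared their donor material. HS, A10-FMT, Con-FMT and HS+A10 thus have the diet and STZ in common, and what sets a transfer group apart from HS is both the act of transfer and the source of the microbiota.

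As background, most amino acids lose their amino group to α-ketoglutarate in the liver, and the resulting glutamate feeds ammonium and aspartate into the urea cycle. The carbon skeletons then enter glycolysis, ketone body formation or the citric acid cycle, which makes these enzymes a main source of substrate for glucose production in fasting and in insulin deficiency. Many of the genes are classical targets of glucagon, glucocorticoids and insulin, with Tat, Tdo2 and Sds among the textbook examples. The urea cycle, Hal and Gls2 are strongest in periportal hepatocytes.

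The members were abundant in every library. Their summed level made up 1.32% to 2.5% of all RPKM (reads scaled to the length of the gene and the size of the library, the unit of the deposited table). In Con the mean level ran from 24.7 RPKM for Dbt to 2114 RPKM for Bhmt, 22 members lay above 100 RPKM, and Bhmt, Ass1, Gnmt and Hpd lay above 1000 RPKM. Of the 37 pairs of neighbours in the order of Con levels, 32 overlapped in their Con libraries. The 8 hepatocyte markers checked against the tissue label summed to between 64000 and 95000 RPKM in every group. The depth of the libraries relative to one another, read from the smallest steps of 13 genes, ran from 0.953 to 1.04. The number of reads is not given, so the SD of each value rests on the 3 libraries of its group. Each SE and confidence interval below rests instead on a spread per gene shared by the 6 groups and estimated from all 18 libraries. The same holds for the p-values, unless fewer libraries were fitted. The labels do not say that the libraries of a group came from separate animals, and p-values measure the spread between the samples.

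Several libraries stood apart. Con replicate 3 had a value between those of Con replicates 1 and 2 for 98.3% of the 575 genes in which these differed by at least 0.5 on the log2 scale, and A10 replicate 3 lay between A10 replicates 1 and 2 for 95.9% of 345 genes, where the libraries of the other 4 groups gave 49.2% to 72.7%. Among the members, Con replicate 3 was the middle library for 34 and A10 replicate 3 for 28 of 38. Con-FMT replicate 3 carried 3.67% of its RPKM in 19 pancreatic genes, against at most 0.00679% in any other library, and was the highest of its group in 30 members. HS replicate 3 was the highest HS library in 23 members and Con replicate 1 the lowest Con library in 33. Markers of red blood cells summed to 4440 to 12400 RPKM in HS against 1580 to 3120 RPKM in Con, and those of hepatic stellate cells to 176 to 232 RPKM against 97.6 to 131 RPKM. In A10-FMT red blood cell markers summed to 1690 to 2630 RPKM, stellate markers to 132 to 161 RPKM and Kupffer cell markers to 54.1 to 64.9 RPKM, the last against 84.6 to 142 RPKM in HS, all below HS without overlap. In Con-FMT stellate markers summed to 127 to 159 RPKM, below HS, and those of red blood cells and Kupffer cells overlapped HS. All 7 markers of each list were detected, and their part in the results was not tested. In whole liver RNA, fewer hepatocytes and less RNA per hepatocyte cannot be told apart.

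**Figure D1:**
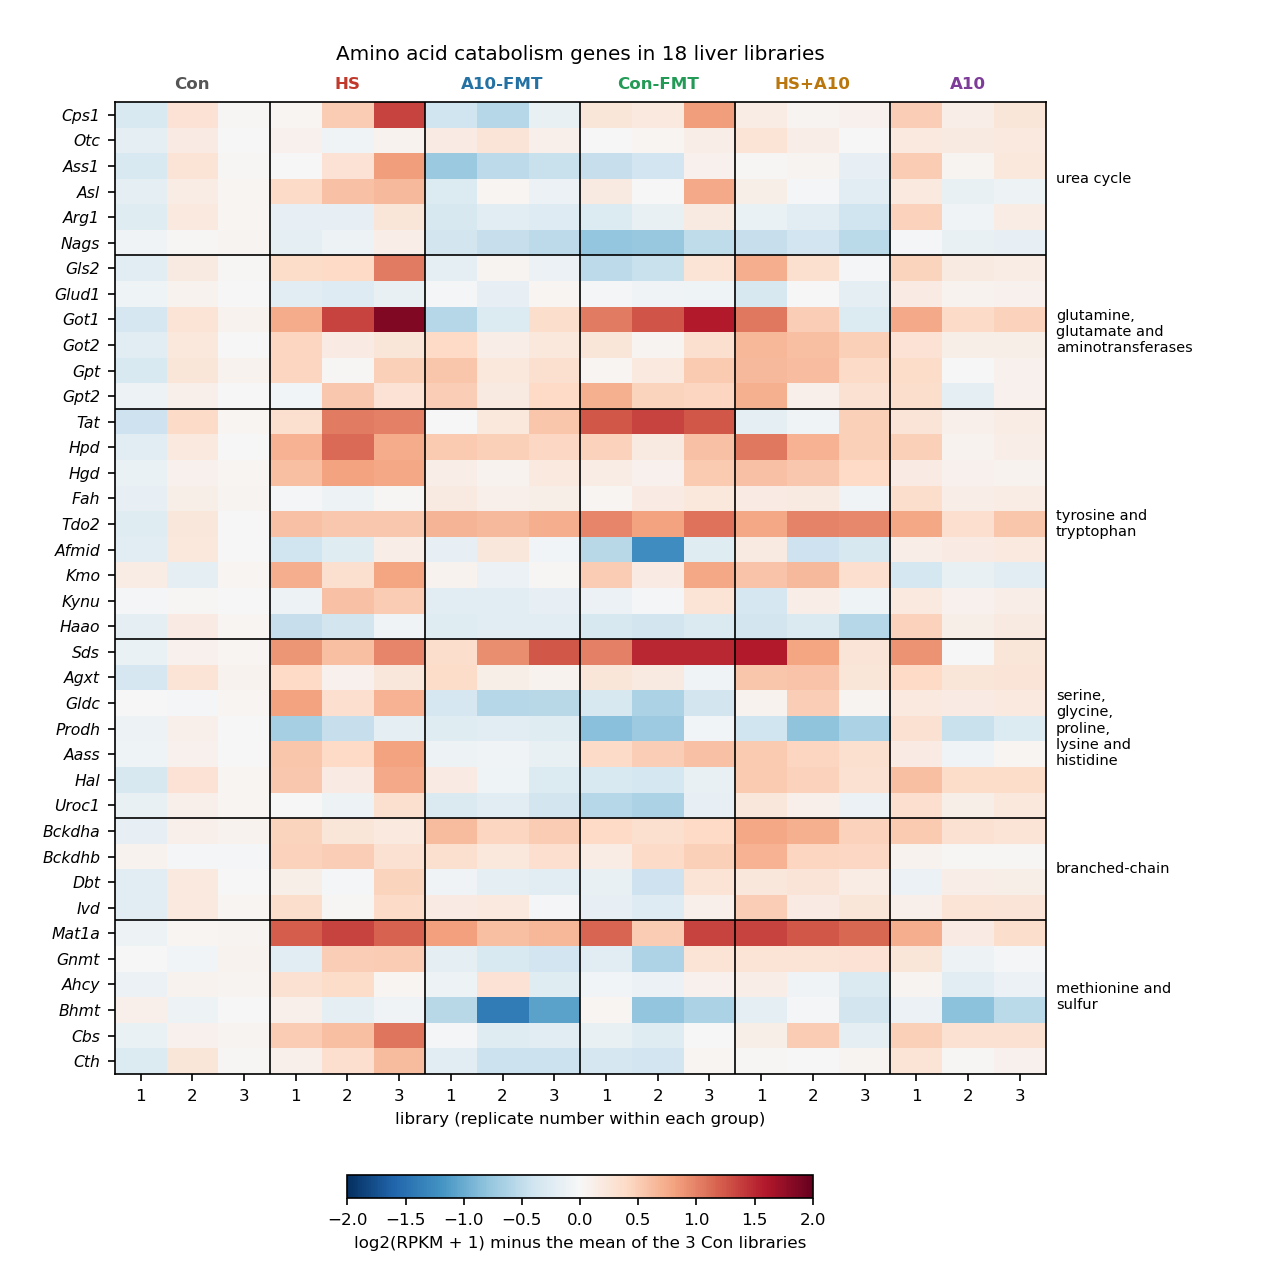
Heat map of the 38 members (rows, by role) in 18 libraries (columns, by group), as log2(RPKM + 1) minus the mean of the 3 Con libraries. Red is above and blue below the Con mean, values run from -1.40 to 1.85, and the strongest red is Got1 in HS replicate 3.

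HS livers held more mRNA for part of this enzyme set, and no member was called lower. In HS compared with Con, 12 of 38 members were called higher and 0 lower at an adjusted p under 0.05 (limma on log2 of RPKM + 1, Benjamini-Hochberg over 10204 genes), where 15.9% of all genes tested were higher and 1.87% lower. At an unadjusted p under 0.05, 22 members passed in either direction, against 34.4% of all genes. Per role, 5 of 9 aromatic, 2 of 7 serine to histidine, 2 of 6 sulfur, 1 of 4 branched-chain, 1 of 6 glutamate and 1 of 6 urea cycle members rose. The median log2 change of the members was 0.32 and that of all genes 0.14. Since the median of all genes was above 0 in HS, the libraries were also scaled to a common median. Members then numbered 8 higher and 2 lower, against 3.9% and 4.76% of all genes, and the median of the members was 0.13.

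With the middle libraries of Con and A10 left out, 7 members were higher (Hpd, Hgd, Tdo2, Gldc, Aass, Mat1a and Cbs), against 6.31% of all genes, and all 7 were among the 12. Without HS replicate 3 there were 8 higher and 1 lower (11% and 1.6% of all genes), the latter being Haao, which opens the ring of 3-hydroxyanthranilate late in tryptophan breakdown.

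A10-FMT livers held less mRNA than HS livers for a broad part of the set. In A10-FMT compared with HS, 0 members were higher and 16 of 38 lower, where 2.09% of all genes were higher and 21% lower, and the median log2 change was -0.38 for the members and -0.16 for all genes. Per role, 4 of 6 urea cycle, 4 of 6 sulfur, 3 of 9 aromatic, 3 of 7 serine to histidine, 2 of 6 glutamate and 0 of 4 branched-chain members fell. After median scaling 8 members were lower (Ass1, Got1, Hgd, Gldc, Aass, Bhmt, Cbs and Cth) and 4 higher (Otc, Glud1, Fah and Bckdha), against 5.06% and 6.26% of all genes. Without HS replicate 3, 10 members were lower (13.5% of all genes), and without the middle libraries of Con and A10, 14 (16.4%), Gls2 and Mat1a being lost.

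Con-FMT livers also held less mRNA than HS livers for some members, a share close to that of all genes. In Con-FMT compared with HS, 1 member was higher and 9 lower, where 4.61% of all genes were higher and 19% lower, and the medians were -0.22 for the members and -0.12 for all genes. In either direction 26.3% of members were called, against 23.6% of all genes. Median scaling gave 3 members higher (Glud1, Fah and Tdo2) and 8 lower, against 8.41% and 12.2% of all genes. The count depended on 1 library of each group. Without HS replicate 3, 5 members were lower (Nags, Hgd, Gldc, Hal and Cbs, with 15.4% of all genes lower), and without Con-FMT replicate 3, the library with pancreatic mRNA, 14 were lower (18% of all genes). Without the middle libraries of Con and A10, 8 were lower (15.6% of all genes), with Ass1 and Tdo2 lost. Both transfer groups were compared with the same 3 HS libraries, which also enter HS compared with Con, so the directions in these comparisons are not independent of one another. Each comparison's own values are given side by side below. Groups of 3 without overlap were common among the 10204 genes tested. HS lay wholly above Con for 32.6% of these genes and wholly below it for 4.17%. For A10-FMT against HS, 32.8% lay wholly below and 4.59% wholly above. The shares for Con-FMT against HS were 27.9% below and 7.11% above. Lack of overlap therefore does not by itself set a member apart from other genes.

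**Figure D2:**
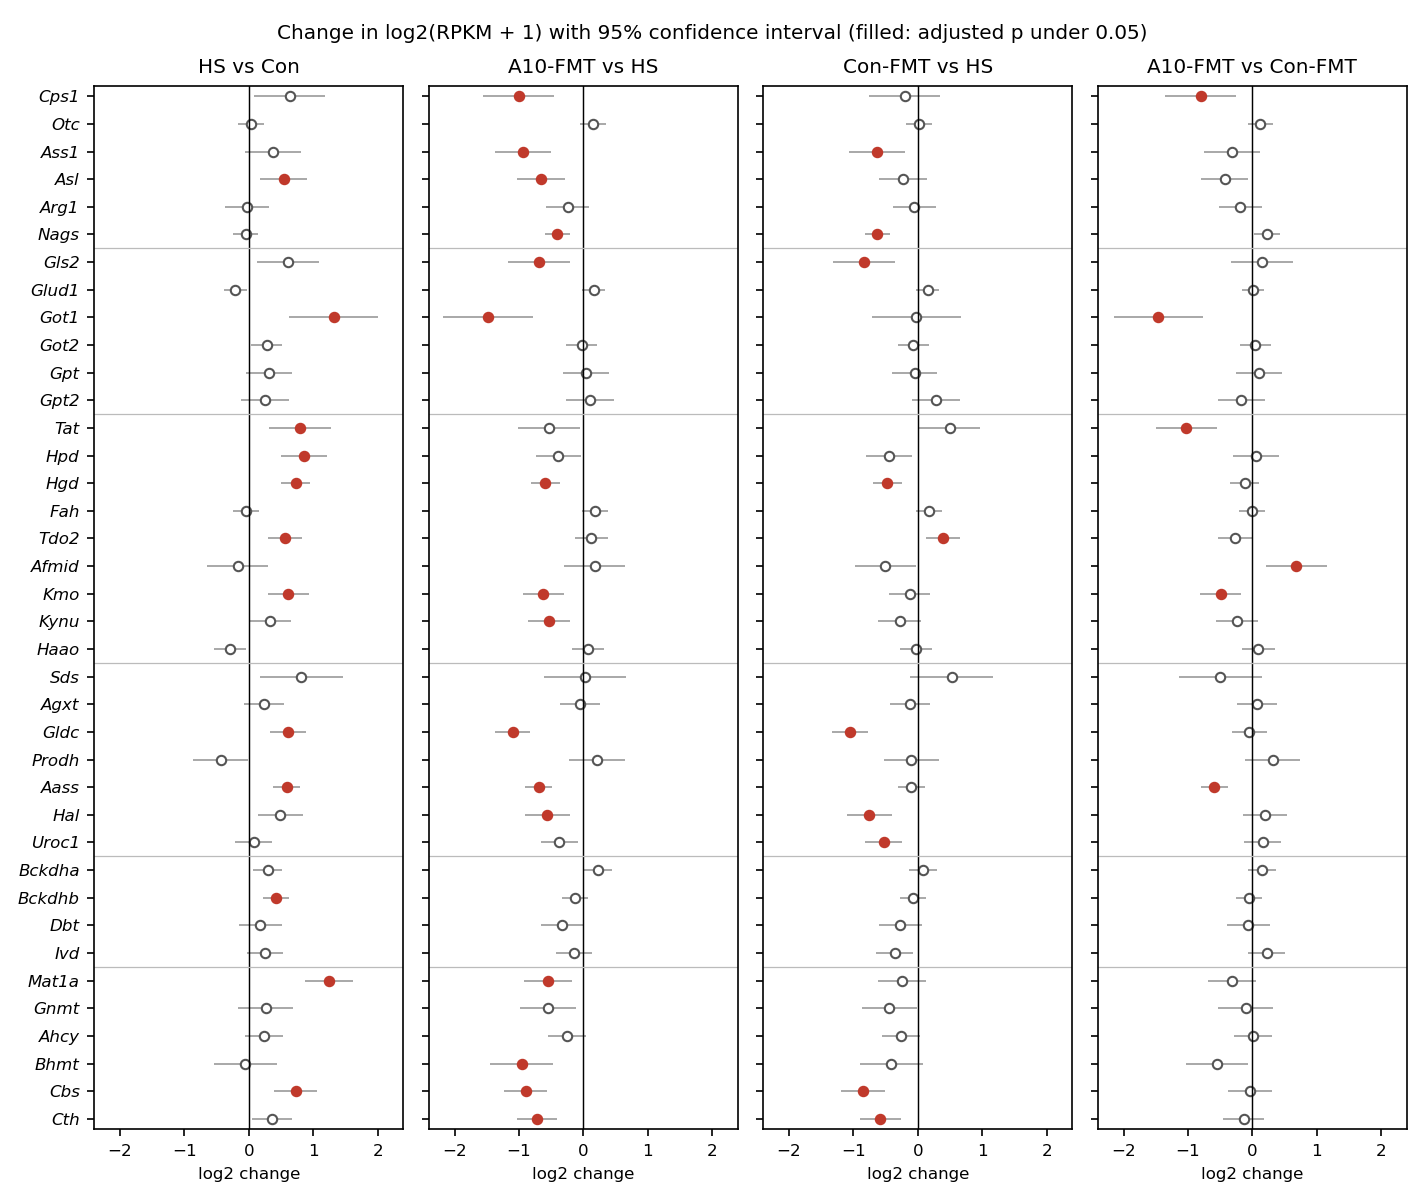
Change of each member in log2(RPKM + 1), with its 95% confidence interval from limma, in 4 comparisons (panels), with the roles separated by lines. Filled points passed an adjusted p of 0.05, with 12 members to the right of 0 in HS vs Con and 16 to the left in A10-FMT vs HS.

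In the urea cycle, Cps1, Nags, Ass1 and Asl were lower in A10-FMT than in HS, while Otc and Arg1 gave no call on the deposited scale. Gene positions are given on GRCm38, from the GENCODE vM21 annotation. Cps1 (carbamoyl phosphate synthetase, the first and committed step, chr1:67123026-67231259) was present at 298, 449 and 375 RPKM in Con, 378, 527 and 941 in HS, 278, 249 and 333 in A10-FMT, 439, 425 and 658 in Con-FMT, 410.4, 381 and 391 in HS+A10 and 517, 406 and 438 in A10. HS replicate 3 was far above the other HS libraries, HS and Con overlapped, and the A10-FMT libraries all lay below HS and below Con-FMT. The log2 change was 0.63 ± 0.26 (SE, adjusted p = 0.0966) in HS, -1.01 ± 0.26 (SE, adjusted p = 0.0134) in A10-FMT compared with HS and -0.20 ± 0.26 (SE, adjusted p = 0.607) in Con-FMT. The call in A10-FMT was lost after median scaling and without A10-FMT replicate 2 (-0.91) or HS replicate 3 (-0.65). It was also lost when only A10-FMT and HS were fitted.

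Nags, which makes the N-acetylglutamate that Cps1 needs as its activator, was lower than in HS in A10-FMT, Con-FMT and HS+A10. Its libraries held 29.7, 31.9 and 32.5 RPKM in Con, 27.5, 29.3 and 34.6 in HS, 23.97, 22.5 and 21.5 in A10-FMT, 17.9, 18.1 and 21.8 in Con-FMT, 22.6, 23.7 and 21.3 in HS+A10 and 30.7, 28.2 and 27.9 in A10. HS overlapped Con, and every library of A10-FMT, Con-FMT and HS+A10 lay below every HS and Con library. Nags fell in all 3 groups compared with HS, by 0.41 ± 0.09 (SE, adjusted p = 0.00722) in A10-FMT, 0.63 ± 0.09 (SE, adjusted p = 0.000334) in Con-FMT and 0.41 ± 0.09 (SE, adjusted p = 0.0171) in HS+A10 on the log2 scale. In A10-FMT this call was lost after median scaling (adjusted p = 0.0822) and quantile normalization, and in HS+A10 it was lost without HS replicate 3 (-0.32) or HS+A10 replicate 1 (-0.42). In both it was also lost when only the groups compared were fitted.

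Ass1, which joins citrulline and aspartate (chr2:31470207-31520672), was the strongest urea cycle transcript, with 1345, 1992 and 1688 RPKM in Con, 1653, 2031 and 2954 in HS, 992, 1154 and 1214 in A10-FMT, 1207, 1265 and 1753 in Con-FMT, 1676, 1721 and 1477 in HS+A10 and 2356, 1716 and 1922 in A10. All A10-FMT libraries lay below all Con and HS libraries, and Con-FMT overlapped HS through its replicate 3. Ass1 changed by -0.94 ± 0.20 (SE, adjusted p = 0.00574) in A10-FMT compared with HS, a mean of 0.506 times that of HS, and by -0.63 ± 0.20 (SE, adjusted p = 0.0362) in Con-FMT. The Con-FMT call was lost after median scaling and without the middle libraries of Con and A10 (-0.63), Con-FMT replicate 1 (-0.53), Con-FMT replicate 2 (-0.56), HS replicate 2 (-0.67) or HS replicate 3 (-0.40). Asl, which splits argininosuccinate into arginine and fumarate, was at 159, 203 and 188 RPKM in Con, 237, 275 and 287 in HS, 150.2, 187 and 169 in A10-FMT, 207, 180.5 and 311 in Con-FMT, 198, 178 and 155 in HS+A10 and 208, 164 and 169.8 in A10. HS lay above Con and above A10-FMT without overlap, with changes of 0.54 ± 0.17 (SE, adjusted p = 0.0422) in HS compared with Con and -0.66 ± 0.17 (SE, adjusted p = 0.0147) in A10-FMT compared with HS, but neither was called after median scaling. The rise in HS was lost in 11 of 17 alternatives that kept the 0.05 threshold, among them those without the middle libraries of Con and A10 (0.56), Con replicate 1 (0.44), Con replicate 3 (0.56), HS replicate 2 (0.51) or HS replicate 3 (0.48), and the fall in A10-FMT without HS replicate 3 (-0.60). The remaining enzymes gave no call on the deposited scale. Otc, which forms citrulline, was at 231 ± 28.2 RPKM (SD, n = 3) in Con and 235 ± 13.9 RPKM in HS, a log2 change of 0.03 (95% confidence interval -0.17 to 0.23). Arg1, which releases urea, was at 645 ± 96.6 RPKM in Con and 633 ± 108 RPKM in HS, a log2 change of -0.03 (95% confidence interval -0.37 to 0.31).

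**Figure D3:**
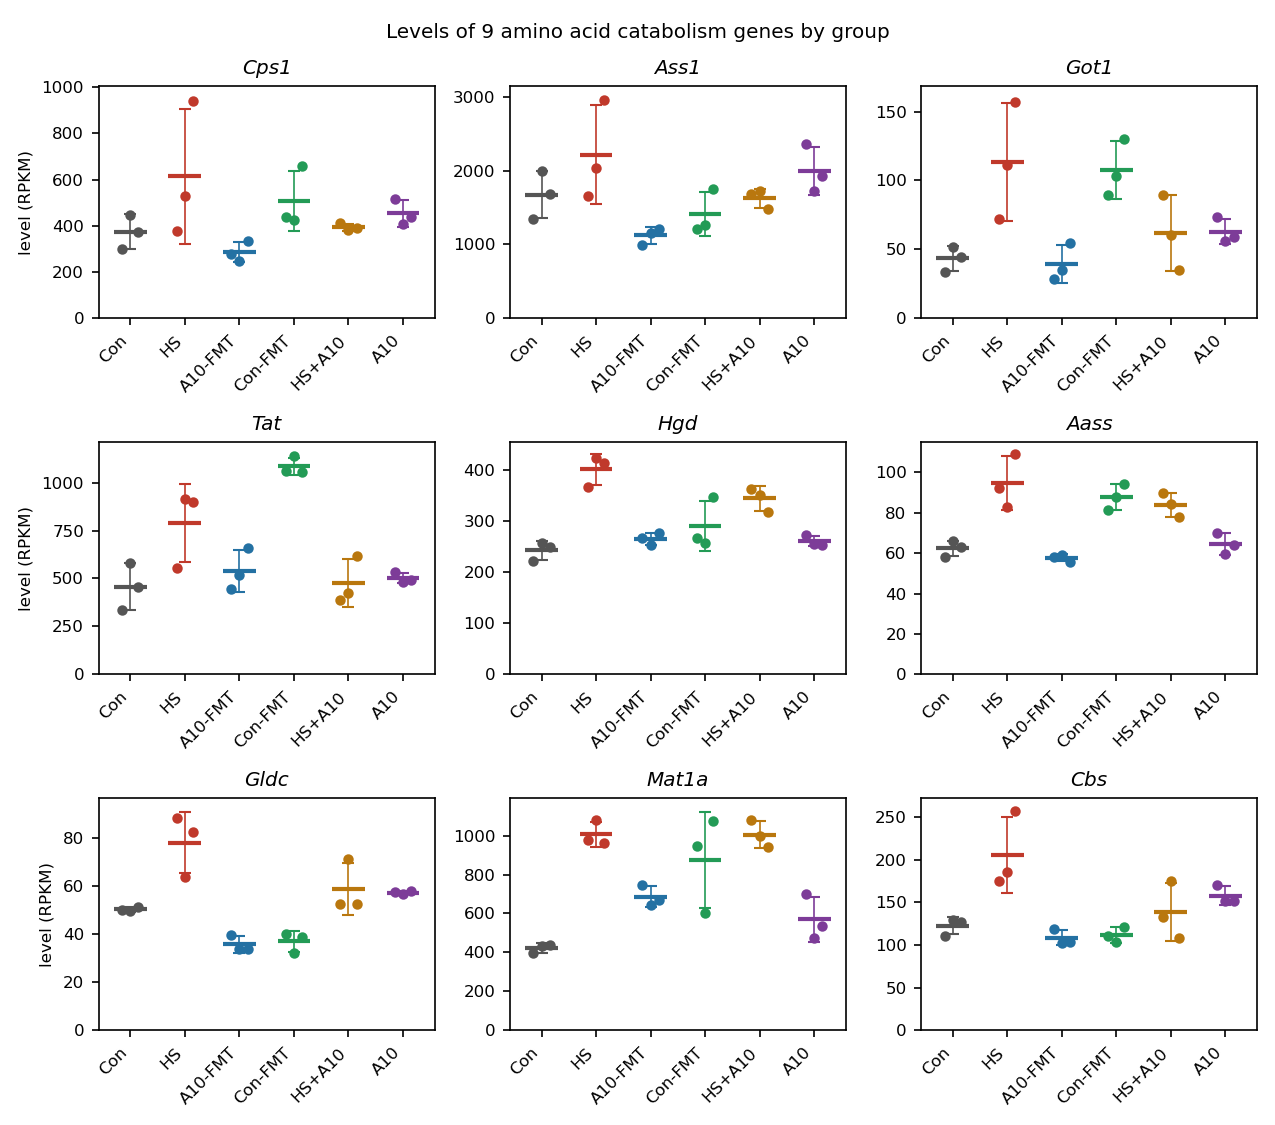
RPKM of 9 members in each library (points) by group, with the group mean (line) and SD (bar, n = 3), on axes that start at 0. Aass in A10-FMT sits between 55.9 and 59.1, below the lowest HS library at 82.7, while Con-FMT sits between 81.4 and 94.03.

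Among the glutamate and aminotransferase genes, the cytosolic aspartate aminotransferase Got1 (chr19:43499752-43524605) moved most, while its mitochondrial counterpart Got2 gave no call when all libraries were fitted on the deposited scale. Got1 was at 33.6, 51.8 and 44.8 RPKM in Con, 72.1, 111 and 157 in HS, 28.5, 35.2 and 54.7 in A10-FMT, 89.2, 103 and 130.3 in Con-FMT, 89.7, 60.5 and 35 in HS+A10 and 73.3, 55.9 and 59.3 in A10. HS and Con-FMT lay above Con and A10-FMT without overlap, and the HS+A10 libraries spread from the Con range into that of HS. The HS mean was 2.61 times that of Con (log2 change 1.32 ± 0.33 SE, adjusted p = 0.0145), and the A10-FMT mean was 0.348 times that of HS (-1.48 ± 0.33 SE, adjusted p = 0.00625). In Con-FMT the log2 change from HS was -0.02 (95% confidence interval -0.71 to 0.67). The call in HS was lost without the middle libraries of Con and A10 (1.35), Con replicate 1 (1.15) or HS replicate 3 (1.05). For Got2 the log2 change in HS was 0.28 (95% confidence interval 0.04 to 0.52), and whether the 2 genes differ in their change was not tested.

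Gls2, the liver glutaminase that frees ammonium from glutamine, was at 100.4, 131 and 118 RPKM in Con, 149, 153 and 239.1 in HS, 101, 121 and 106 in A10-FMT, 79.8, 84.8 and 140.2 in Con-FMT, 191, 145 and 114 in HS+A10 and 158, 131 and 128 in A10. All 6 transfer libraries lay below the 3 HS libraries. Gls2 fell by 0.69 ± 0.23 (SE, adjusted p = 0.0393) in A10-FMT and 0.84 ± 0.23 (SE, adjusted p = 0.0152) in Con-FMT on the log2 scale. The first call was lost in 13 of 17 alternatives, among them those without the middle libraries of Con and A10 (-0.69), A10-FMT replicate 1 (-0.63), A10-FMT replicate 2 (-0.76), A10-FMT replicate 3 (-0.67), HS replicate 2 (-0.79) or HS replicate 3 (-0.47), and the second without Con-FMT replicate 1 (-0.69), Con-FMT replicate 2 (-0.73) or HS replicate 3 (-0.62). The second was also lost when only Con-FMT and HS were fitted. Glud1 (glutamate dehydrogenase) was at 303 ± 16.98 RPKM (SD, n = 3) in Con and 261 ± 9.75 RPKM in HS, with all HS libraries below all Con libraries and a log2 change of -0.21 ± 0.08 (SE, adjusted p = 0.0881). After median scaling it was called lower in HS and higher in both transfer groups compared with HS. The alanine aminotransferases Gpt and Gpt2 gave no call in any comparison or scaling, with log2 changes in HS of 0.31 (95% confidence interval -0.04 to 0.67) and 0.25 (95% confidence interval -0.12 to 0.62).

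Of the 4 tyrosine genes, 3 rose in HS. Tat, the aminotransferase that starts the pathway, was at 334, 581 and 455 RPKM in Con, 557, 915 and 899 in HS, 444, 516 and 657 in A10-FMT, 1059, 1137 and 1058 in Con-FMT, 388, 424 and 617 in HS+A10 and 532, 479.8 and 491 in A10. The Con-FMT libraries lay above those of every other group, and HS and Con overlapped through HS replicate 1. Tat changed by 0.79 ± 0.22 (SE, adjusted p = 0.0264) in HS compared with Con, and, against HS, -0.54 ± 0.22 (SE, adjusted p = 0.0931) in A10-FMT and 0.49 ± 0.22 (SE, adjusted p = 0.128) in Con-FMT, and the call in HS was lost in 9 of 17 alternatives, among them median scaling and those without the middle libraries of Con and A10 (0.81), Con replicate 1 (0.58), Con replicate 3 (0.81), HS replicate 2 (0.67) or HS replicate 3 (0.68). The next enzyme, Hpd (4-hydroxyphenylpyruvate dioxygenase, chr5:123171807-123182727), was at 910.1, 1204 and 1060.2 RPKM in Con, 1699.6, 2315 and 1766 in HS, 1515, 1464 and 1401 in A10-FMT, 1445, 1193 and 1583 in Con-FMT, 2191, 1695 and 1466 in HS+A10 and 1462, 1104 and 1147 in A10. HS lay above Con without overlap (0.86 ± 0.17 SE, adjusted p = 0.00431, 1.82 times the Con mean). Both transfer groups lay below HS without overlap but were not called, with changes of -0.39 ± 0.17 (SE, adjusted p = 0.102) and -0.45 ± 0.17 (SE, adjusted p = 0.0636). Hgd (homogentisate dioxygenase, chr16:37580153-37632020) was at 222, 258 and 249 RPKM in Con, 368, 424 and 413 in HS, 266, 253 and 277 in A10-FMT, 267, 258 and 348 in Con-FMT, 364, 352 and 318 in HS+A10 and 272, 256 and 254 in A10. HS lay above all other groups without overlap. Hgd rose by 0.73 ± 0.11 (SE, adjusted p = 0.00075) in HS and fell by 0.59 ± 0.11 (SE, adjusted p = 0.00209) in A10-FMT and 0.47 ± 0.11 (SE, adjusted p = 0.00573) in Con-FMT on the log2 scale. All 3 calls held after median and quantile scaling and without any single library. The last enzyme, Fah, gave no call on the deposited scale, with 405 ± 24.3 RPKM (SD, n = 3) in Con-FMT, 405 ± 10.8 in A10-FMT, 359 ± 15.9 in HS and 369 ± 37.2 in Con.

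The promoters of Hgd, Hpd, Aass and Gldc are shown because these 4 had the smallest adjusted p in HS compared with Con among the members with an entry in the RefSeq promoter table (28 of 38 members, build GRCm38.p6). Each window holds 250 bases before and 50 bases after the annotated start, in the direction of transcription. Capitals mark matches, on either strand, to 5 short motifs, namely the CRE core TGACG bound by CREB factors, the glucocorticoid receptor core AGAACA, the E-box CACGTG, the forkhead site GTAAACA and the nuclear receptor core AGGTCA, which reads TGACCT on the other strand.
Hgd, chr16:37579903-37580202, plus strand: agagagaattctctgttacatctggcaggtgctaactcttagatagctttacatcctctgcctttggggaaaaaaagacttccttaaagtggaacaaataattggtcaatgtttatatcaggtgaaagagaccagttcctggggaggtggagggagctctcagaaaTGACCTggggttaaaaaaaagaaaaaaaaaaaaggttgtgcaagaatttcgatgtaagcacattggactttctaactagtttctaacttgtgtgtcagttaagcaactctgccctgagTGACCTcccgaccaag
Aass, chr6:23132937-23133236, minus strand: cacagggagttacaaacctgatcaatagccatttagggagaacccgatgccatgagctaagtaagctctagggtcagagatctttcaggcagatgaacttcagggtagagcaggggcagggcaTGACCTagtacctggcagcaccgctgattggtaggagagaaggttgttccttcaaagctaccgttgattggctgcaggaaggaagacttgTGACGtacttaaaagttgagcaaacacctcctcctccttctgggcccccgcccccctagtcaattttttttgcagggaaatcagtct
Hpd, chr5:123182674-123182973, minus strand: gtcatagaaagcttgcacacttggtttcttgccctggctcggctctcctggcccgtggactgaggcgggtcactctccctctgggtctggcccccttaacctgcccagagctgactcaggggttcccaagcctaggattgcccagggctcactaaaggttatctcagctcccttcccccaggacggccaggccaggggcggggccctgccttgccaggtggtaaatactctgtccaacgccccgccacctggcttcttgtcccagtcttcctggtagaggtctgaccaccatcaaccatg
Gldc, chr19:30175392-30175691, minus strand: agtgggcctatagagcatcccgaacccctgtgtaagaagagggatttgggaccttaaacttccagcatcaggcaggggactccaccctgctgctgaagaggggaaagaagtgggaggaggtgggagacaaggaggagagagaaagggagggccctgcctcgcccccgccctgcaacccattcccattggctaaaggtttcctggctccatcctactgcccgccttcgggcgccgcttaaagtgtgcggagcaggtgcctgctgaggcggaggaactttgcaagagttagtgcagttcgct

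Among these windows, the Hgd promoter held 2 matches to the nuclear receptor core, 84 bases before the start and 35 bases after it. The Aass promoter held 1 match to it and 1 to the CRE core, at 127 and 37 bases before the start, and the Hpd and Gldc windows held 0 matches. The nuclear receptor core was present in 12 of the 28 members (42.9%) and in 16.3% of 32851 promoters of the same length. For this and the other motifs, a member was counted once if any of its windows matched. All promoters were counted singly, so the shares of members and of promoters are not like measures. The nuclear receptor core was present in 5 of the 10 members with an entry that rose in HS. The other motifs were in 2 members for TGACG (20.8% of all promoters), 4 for AGAACA (19% of all), 2 for CACGTG (7.15% of all) and 0 for GTAAACA (3.65% of all). A match describes letters in a window and nothing more.

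In tryptophan breakdown, the first enzyme Tdo2 rose in HS and lay above Con in every library of both transfer groups. Tdo2 was at 331, 458 and 391 RPKM in Con, 588, 567 and 566 in HS, 624, 610.4 and 644 in A10-FMT, 767, 678 and 827 in Con-FMT, 669, 776 and 759.7 in HS+A10 and 664, 491 and 574 in A10. Every library of the other 5 groups lay above every Con library. The log2 change was 0.56 ± 0.12 (SE, adjusted p = 0.00864) in HS compared with Con, and, against HS, 0.13 ± 0.12 (SE, adjusted p = 0.472) in A10-FMT and 0.39 ± 0.12 (SE, adjusted p = 0.0306) in Con-FMT, the last call being lost in 8 of 17 alternatives, among them quantile normalization and those without the middle libraries of Con and A10 (0.39), Con-FMT replicate 1 (0.38), Con-FMT replicate 3 (0.33), HS replicate 1 (0.41), HS replicate 2 (0.39) or HS replicate 3 (0.39). Kmo, which hydroxylates kynurenine, was at 111, 87.9 and 102 RPKM in Con, 166, 126 and 173 in HS, 104, 92.2 and 102 in A10-FMT, 143, 112 and 172 in Con-FMT, 149, 157 and 127 in HS+A10 and 77.9, 90.1 and 85 in A10. HS lay above Con and A10-FMT without overlap, while Con-FMT overlapped HS. Kmo rose by 0.61 ± 0.15 (SE, adjusted p = 0.0143) in HS and fell by 0.62 ± 0.15 (SE, adjusted p = 0.0103) in A10-FMT on the log2 scale, and neither call held after median scaling. The rise was also lost without the middle libraries of Con and A10 (0.63) or HS replicate 3 (0.53). Kynu, which cleaves kynurenine and its hydroxylated form, ranged from 78.5 to 127 RPKM in HS and from 71.9 to 75.2 in A10-FMT (-0.53 ± 0.15 SE, adjusted p = 0.0238), a call also lost after median scaling and without A10-FMT replicate 2 (-0.51), A10-FMT replicate 3 (-0.55), HS replicate 2 (-0.40) or HS replicate 3 (-0.44). Afmid, which forms kynurenine, ranged from 29.1 to 59.6 RPKM in Con-FMT and from 62.5 to 83.1 RPKM in A10-FMT. Haao gave no call with all libraries on the deposited scale (-0.30 ± 0.12 SE, adjusted p = 0.0891 in HS). It was called lower in HS after median scaling (adjusted p = 0.0124) and without HS replicate 3.

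The genes of serine, glycine, proline, lysine and histidine breakdown held 2 that rose in HS, Gldc and Aass, and 2 histidine enzymes that were lower after transfer, Hal in both transfer groups and Uroc1 in Con-FMT. Gldc, the decarboxylase of the glycine cleavage system (chr19:30098447-30175429), was at 50.02, 49.5 and 51.4 RPKM in Con, 88.3, 63.8 and 82.3 in HS, 39.6, 33.7 and 33.8 in A10-FMT, 40.1, 32.1 and 38.7 in Con-FMT, 52.6, 71.1 and 52.5 in HS+A10 and 57.5, 56.6 and 57.8 in A10. The HS libraries were above Con, and all 6 transfer libraries lay below every Con library as well as every HS library. Gldc rose by 0.61 ± 0.13 (SE, adjusted p = 0.00687) in HS and fell by 1.10 ± 0.13 (SE, adjusted p = 0.000235) in A10-FMT and 1.05 ± 0.13 (SE, adjusted p = 9.84e-05) in Con-FMT on the log2 scale, the smallest adjusted p of any member in the last 2 comparisons, and all 3 calls held at the 0.05 threshold under every other fit, scaling, filter and choice of libraries tried. Aass, the enzyme that starts lysine breakdown (chr6:23072173-23132986), was at 58.3, 65.8 and 62.9 RPKM in Con, 92.05, 82.7 and 109 in HS, 58.1, 59.1 and 55.9 in A10-FMT, 81.4, 87.7 and 94.03 in Con-FMT, 89.7, 84.2 and 77.8 in HS+A10 and 70, 59.4 and 64.2 in A10. The HS libraries were above those of Con and A10-FMT, and Con-FMT overlapped HS. Its log2 change was 0.59 ± 0.10 (SE, adjusted p = 0.00174) in HS and -0.69 ± 0.10 (SE, adjusted p = 0.000699) in A10-FMT compared with HS, and in Con-FMT it was -0.10 (95% confidence interval -0.31 to 0.11).

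Hal and Uroc1 act in turn on histidine. Hal was at 61.9, 95.4 and 79.8 RPKM in Con, 113, 87.2 and 133 in HS, 87.2, 73.1 and 63.97 in A10-FMT, 62.9, 60.99 and 70.4 in Con-FMT, 112, 108 and 96.9 in HS+A10 and 118, 101 and 100.5 in A10. The Con-FMT libraries lay below all HS libraries, and the highest A10-FMT library lay just under the lowest HS library. Hal fell by 0.56 ± 0.16 (SE, adjusted p = 0.0244) in A10-FMT and 0.75 ± 0.16 (SE, adjusted p = 0.00452) in Con-FMT on the log2 scale, the first call being lost after median scaling and without A10-FMT replicate 2 (-0.55), A10-FMT replicate 3 (-0.45), HS replicate 1 (-0.53) or HS replicate 3 (-0.42). Uroc1 was at 96.8, 116 and 111 RPKM in Con, 108, 101 and 134 in HS, 87.7, 92.1 and 82.8 in A10-FMT, 72.4, 68.97 and 96.1 in Con-FMT, 126, 115 and 99.4 in HS+A10 and 137, 117 and 125 in A10. Con-FMT and A10-FMT both lay below HS without overlap, with changes of -0.53 ± 0.13 (SE, adjusted p = 0.0108) and -0.37 ± 0.13 (SE, adjusted p = 0.0565). The call in Con-FMT was lost without Con-FMT replicate 2 (-0.44) or HS replicate 3 (-0.41), and when only Con-FMT and HS were fitted. The other 3 genes of this role gave no call when all 18 libraries were fitted. Sds (serine dehydratase) was at 210.4 ± 39.6 RPKM (SD, n = 3) in Con-FMT, 152 ± 45.5 in A10-FMT, 145 ± 19.3 in HS and 81.5 ± 6.41 in Con, so that all 9 libraries of the first 3 groups lay above Con. Its log2 change in HS was 0.82 ± 0.30 (SE, adjusted p = 0.071), and it was called higher when only HS and Con, or only the 12 libraries of Con, HS, A10-FMT and Con-FMT, were fitted. Prodh (proline dehydrogenase) lay below Con without overlap in HS (-0.44 ± 0.20 SE, adjusted p = 0.137), and Agxt, which detoxifies glyoxylate, changed by 0.24 (95% confidence interval -0.08 to 0.55) in HS.

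Of the 4 branched-chain genes, 1 was called in the main fit of all 18 libraries. Bckdhb, the E1 beta subunit of the branched-chain ketoacid dehydrogenase, was at 78.2, 72.2 and 72.3 RPKM in Con, 102, 105 and 91.8 in HS, 92.8, 85.8 and 93.5 in A10-FMT, 82.5, 97.5 and 104 in Con-FMT, 121, 100.2 and 99.3 in HS+A10 and 77.7, 75.2 and 75.8 in A10. The 12 libraries that share the diet and STZ all lay above Con. Bckdhb rose by 0.42 ± 0.09 (SE, adjusted p = 0.00956) in HS on the log2 scale, a call lost after median and quantile scaling and without the middle libraries of Con and A10 (0.40). The E1 alpha subunit Bckdha changed by 0.29 ± 0.10 (SE, adjusted p = 0.0639) in HS and 0.23 ± 0.10 (SE, adjusted p = 0.12) in A10-FMT compared with HS, where it was called higher after median scaling (adjusted p = 0.00972). Bckdha was also called higher in HS+A10 than in HS with a filter of 5 RPKM, with no variance trend, and without HS replicate 1 or HS+A10 replicate 3. The E2 subunit Dbt and the leucine pathway enzyme Ivd gave no call with all libraries, though both were called lower in Con-FMT than in HS without Con-FMT replicate 3, with log2 changes in HS of 0.18 (95% confidence interval -0.16 to 0.51) and 0.25 (95% confidence interval -0.03 to 0.53).

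In methionine and sulfur metabolism, Mat1a had the largest rise in HS while Bhmt fell in A10-FMT. Mat1a, the liver enzyme that makes S-adenosylmethionine (chr14:41105035-41124412), was at 395, 434 and 439.6 RPKM in Con, 977, 1082 and 960.4 in HS, 746, 645 and 671 in A10-FMT, 949, 602 and 1078 in Con-FMT, 1080.1, 996 and 940.5 in HS+A10 and 700.1, 476 and 538 in A10. Every library of the other 5 groups lay above Con, and HS+A10 overlapped HS. The HS mean was 2.38 times that of Con (1.25 ± 0.17 SE, adjusted p = 0.000536), a call that held under every alternative. In A10-FMT it changed by -0.55 ± 0.17 (SE, adjusted p = 0.0342) compared with HS, a call lost in 11 of 17 alternatives, among them median scaling and those without the middle libraries of Con and A10 (-0.55), A10-FMT replicate 2 (-0.51), A10-FMT replicate 3 (-0.54), HS replicate 1 (-0.57), HS replicate 2 (-0.50) or HS replicate 3 (-0.58). Bhmt, which remethylates homocysteine with betaine (chr13:93616675-93637961), was at 2271, 1971 and 2101 RPKM in Con, 2262, 1852 and 2011 in HS, 1431, 800.3 and 1001 in A10-FMT, 2159, 1222 and 1360.3 in Con-FMT, 1863, 2065 and 1636 in HS+A10 and 1953, 1192 and 1453 in A10. A10-FMT lay below HS and Con without overlap, while Con-FMT overlapped both. Bhmt changed by -0.05 ± 0.23 (SE, adjusted p = 0.892) in HS and -0.96 ± 0.23 (SE, adjusted p = 0.00917) in A10-FMT compared with HS. Its reads may be divided with the similar neighbour Bhmt2, so its level is less certain than its name implies.

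Cbs and Cth, the enzymes of transsulfuration that carry homocysteine to cysteine, were both lower after transfer. Cbs was at 111, 129.7 and 127 RPKM in Con, 175, 186 and 257 in HS, 119, 103 and 104 in A10-FMT, 110.4, 103 and 121 in Con-FMT, 133, 175 and 108 in HS+A10 and 170.3, 152 and 152 in A10. HS lay above Con and above both transfer groups, whose libraries were in the Con range or below it. HS and HS+A10 overlapped through HS+A10 replicate 2. Cbs rose by 0.73 ± 0.16 (SE, adjusted p = 0.00807) in HS and fell by 0.90 ± 0.16 (SE, adjusted p = 0.00195) in A10-FMT and 0.86 ± 0.16 (SE, adjusted p = 0.00173) in Con-FMT on the log2 scale. These 3 calls held at the 0.05 threshold under every other fit, scaling, filter and choice of libraries tried. Cth was at 141, 201 and 173 RPKM in Con, 182, 215 and 264 in HS, 145, 126 and 126 in A10-FMT, 134, 130.5 and 174 in Con-FMT, 173, 169 and 176 in HS+A10 and 205, 172 and 179 in A10. HS overlapped Con and lay above both transfer groups. Cth changed by -0.72 ± 0.15 (SE, adjusted p = 0.00453) in A10-FMT and -0.59 ± 0.15 (SE, adjusted p = 0.0109) in Con-FMT, the latter call being lost without HS replicate 3 (-0.45). The Con-FMT call was also lost when only Con-FMT and HS were fitted. Gnmt, which consumes S-adenosylmethionine, was at 1406 ± 373 RPKM (SD, n = 3) in HS and 936 ± 60.5 RPKM in A10-FMT (-0.55 ± 0.20 SE, adjusted p = 0.0596). Ahcy, which hydrolyses S-adenosylhomocysteine, was low at 30.5 ± 2.13 RPKM in Con and gave no call.

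Summed over each role, the urea cycle and sulfur genes had their lowest group mean in A10-FMT. The urea cycle summed to 2389 ± 155 RPKM (SD, n = 3) in A10-FMT, 3016 ± 612 in Con-FMT, 3994 ± 1094 in HS and 3140.3 ± 548 in Con. The sulfur genes summed to 2971 ± 439 RPKM in A10-FMT, 3782 ± 828 in Con-FMT, 4916 ± 278 in HS and 4006 ± 119 in Con. For both roles every A10-FMT library lay below every Con and HS library. In the sulfur sum, however, A10-FMT reached 3469 RPKM and overlapped Con-FMT, which ran from 2833 to 4360 RPKM. It also overlapped A10, which ran from 3087 to 4416 RPKM. In the urea cycle sum A10-FMT overlapped no other group. The aromatic genes summed to 3835 ± 76.9 RPKM in A10-FMT, 4498 ± 345 in Con-FMT, 4662 ± 512 in HS and 3124 ± 431 in Con, so that A10-FMT lay between Con and HS. A sum is led by its most abundant genes, here Ass1, Bhmt and Hpd, and was given no test.

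**Figure D4:**
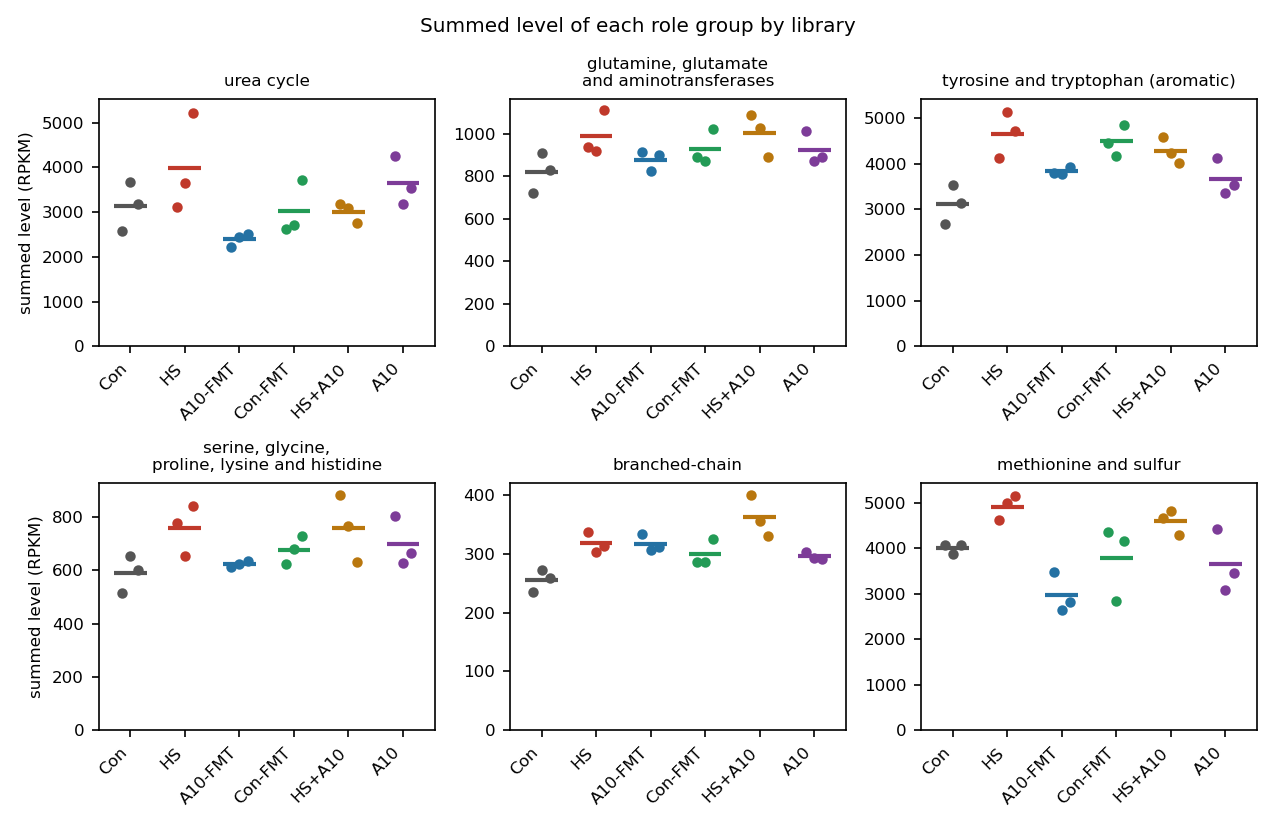
Summed RPKM of the members of each role in each library (points) by group, with the group mean (line, n = 3), on axes that start at 0. In the urea cycle panel the A10-FMT libraries sit between 2217 and 2518, below the lowest Con library at 2577, and HS replicate 3 stands highest at 5218.

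The direct comparison of the 2 transfer groups asks whether the liver differed with the source of the microbiota. In A10-FMT compared with Con-FMT, 1 member was higher and 5 lower, where 6.72% of all genes were higher and 12% lower, or 15.8% of members called in either direction against 18.8% of all genes. The median log2 change was -0.05 for the members and -0.03 for all genes. The 5 lower members were Got1 (-1.46 ± 0.33 SE, adjusted p = 0.00636), Tat (-1.03 ± 0.22 SE, adjusted p = 0.00556), Cps1 (-0.80 ± 0.26 SE, adjusted p = 0.0418), Aass (-0.59 ± 0.10 SE, adjusted p = 0.000953) and Kmo (-0.49 ± 0.15 SE, adjusted p = 0.0329), and the higher member was Afmid (0.68 ± 0.22 SE, adjusted p = 0.0427). Median scaling gave 2 members higher (Nags and Afmid) and 3 lower, against 12.8% and 9.39% of all genes, and without the middle libraries of Con and A10 the same 3, Got1, Tat and Aass, were lower (9.54% of all genes). For each of the 6 the 3 A10-FMT libraries did not overlap the 3 Con-FMT libraries, which held for 31.5% of all genes. Got1, Tat and Aass were called under each scaling and without any single library, whereas Cps1 and Kmo were lost after median scaling. Cps1 was also lost without the middle libraries of Con and A10 (-0.80), A10-FMT replicate 1 (-0.79), A10-FMT replicate 2 (-0.70), Con-FMT replicate 1 (-0.89) or Con-FMT replicate 3 (-0.60), Kmo without the middle libraries of Con and A10 (-0.49), A10-FMT replicate 1 (-0.53), A10-FMT replicate 2 (-0.44), A10-FMT replicate 3 (-0.51), Con-FMT replicate 1 (-0.48) or Con-FMT replicate 3 (-0.35), and Afmid, in 10 of 17 alternatives, without the middle libraries of Con and A10 (0.68), A10-FMT replicate 1 (0.77), A10-FMT replicate 2 (0.57), A10-FMT replicate 3 (0.71), Con-FMT replicate 1 (0.75) or Con-FMT replicate 2 (0.40). Gldc, Cbs and Hgd, which were lower in both transfer groups than in HS, differed between these groups by -0.05 (95% confidence interval -0.32 to 0.23), -0.04 (95% confidence interval -0.38 to 0.30) and -0.12 (95% confidence interval -0.35 to 0.11).

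With AOS added to the diet and STZ, 2 members differed from HS. In HS+A10 compared with HS, 0 members were higher and 2 lower, Nags (-0.41 ± 0.09 SE, adjusted p = 0.0171) and Cbs (-0.57 ± 0.16 SE, adjusted p = 0.0432), where 2.95% of all genes were higher and 4.37% lower. Median scaling gave 3 members higher (Got2, Tdo2 and Bckdha) and 3 lower (Asl, Nags and Cbs), against 5.67% and 3.49% of all genes. The call for Cbs was lost in 9 of 16 alternatives, among them those without the middle libraries of Con and A10 (-0.57), HS replicate 2 (-0.64), HS replicate 3 (-0.40), HS+A10 replicate 1 (-0.56) or HS+A10 replicate 3 (-0.41). Nags was lost without HS replicate 3 (-0.32) or HS+A10 replicate 1 (-0.42), and without HS replicate 3 limma called 0 members. Fitting only HS+A10 and HS also gave 0 members called. Without the middle libraries of Con and A10, 1 member was lower, Nags (2.07% of all genes). Asl missed the threshold (-0.59 ± 0.17 SE, adjusted p = 0.0502), and Got1 and Tat, with changes of -0.90 ± 0.33 (SE, adjusted p = 0.103) and -0.72 ± 0.22 (SE, adjusted p = 0.0612), spread widely between the HS+A10 libraries. In A10 compared with Con, limma called 0 of 38 members, where 0.0686% of all genes were called. At an unadjusted p under 0.05 there were 8 members, against 13.9% of all genes, and the median log2 change was 0.17 for the members and 0.07 for all genes. Tdo2 had the largest rise in A10 at 0.55 ± 0.12 (SE, adjusted p = 0.101), with all A10 libraries above all Con libraries. The difference between the 2 effects of AOS (HS+A10 minus HS, less A10 minus Con) was called for 0 members and 0.0098% of all genes, and 13 members passed an unadjusted p under 0.05, against 12.9% of all genes. Its largest estimates were for Got1 (-1.43 ± 0.46 SE, adjusted p = 0.219) and Cbs (-0.94 ± 0.22 SE, adjusted p = 0.138).

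Across all 6 groups, a moderated F test called 26 of 38 members, where 56.1% of all genes were called. The members with the smallest adjusted p were Gldc (8.06e-05), Nags (0.000144), Aass (0.000162) and Mat1a (0.000222).

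Genes that work with these enzymes were read from lists of pathway neighbours, of which 107 genes were tested. In HS compared with Con, 37 of them were higher and 4 lower. In either direction 38.3% of them were called, against 17.7% of all genes. The lists, like the members, were chosen with earlier results of these data known. Their shares here and below are therefore a description and not a test. Against HS, 9 were higher and 15 lower in A10-FMT (22.4% called, against 23.1% of all genes), 13 higher and 16 lower in Con-FMT (27.1% against 23.6%), and 8 higher and 3 lower in HS+A10 (10.3% against 7.32%). A10-FMT had 10 higher and 13 lower than Con-FMT (21.5% against 18.8%). In A10 against Con limma called 0, against 0.0686% of all genes. There 27 of the 107 passed an unadjusted p under 0.05, against 13.9% of all genes. The neighbours of the urea cycle gave 5 of 8 higher and 0 lower, led by Oat (ornithine aminotransferase), whose level was 78.1 ± 4.69 RPKM (SD, n = 3) in Con, 458 ± 90.7 in HS, 115 ± 40.1 in A10-FMT, 194 ± 51.7 in Con-FMT and 372 ± 25.2 in HS+A10. Oat was above Con in every HS library. Oat rose by 2.52 ± 0.23 (SE, adjusted p = 1.48e-05) in HS and fell by 2.01 ± 0.23 (SE, adjusted p = 0.000185) in A10-FMT and 1.26 ± 0.23 (SE, adjusted p = 0.00143) in Con-FMT on the log2 scale, larger changes than those of any member. Slc25a15, the mitochondrial ornithine carrier, was at 116 ± 20.1 RPKM in HS, 109.5 ± 6.42 in Con-FMT, 71.7 ± 9.64 in A10-FMT and 66.3 ± 2.55 in Con. It changed by -0.68 ± 0.12 (SE, adjusted p = 0.00204) in A10-FMT and was lower in A10-FMT than in Con-FMT (-0.61 ± 0.12 SE, adjusted p = 0.00317), both without overlap.

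Among the other lists, of 19 further branched-chain and propionate genes, 10 were higher and 0 lower in HS (52.6% called, against 17.7% of all genes), with Pcca changed by 0.59 ± 0.10 (SE, adjusted p = 0.00173), and in A10-FMT 0 were higher and 1 lower. Of 19 further serine, glycine, threonine, proline, lysine and histidine genes, 8 were higher and 0 lower in HS (42.1%), and 0 were higher and 4 lower in A10-FMT (21.1%, against 23.1% of all genes). Among these Sdsl, a relative of Sds, rose by 0.78 ± 0.14 (SE, adjusted p = 0.00297) in HS and changed by -1.19 ± 0.14 (SE, adjusted p = 0.000249) in A10-FMT. Of 12 further aromatic genes, 2 were higher and 1 lower in HS (25% called). Acmsd, which draws tryptophan carbon away from NAD synthesis, fell in A10-FMT and in HS+A10 compared with HS (-2.34 ± 0.45 SE, adjusted p = 0.00298 and -2.11 ± 0.45 SE, adjusted p = 0.0146), although its HS libraries spread from 6.39 to 35.8 RPKM. Of 16 further sulfur and methyl group genes, 4 were higher and 2 lower in HS (37.5%), and Csad, which leads from cysteine to taurine, fell from 139 ± 9.61 to 34.4 ± 29.2 RPKM (-2.30 ± 0.56 SE, adjusted p = 0.0133). Of 13 amino acid transporters, 3 were higher and 1 lower in HS (30.8%), led by the cationic transporter Slc7a2, which rose from 13.5 ± 1.57 to 45.8 ± 5.0 RPKM (1.69 ± 0.17 SE, adjusted p = 3.75e-05).

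Of 13 transcriptional regulators of hepatic amino acid breakdown, 3 were higher and 0 lower in HS, or 23.1% called against 17.7% of all genes. Klf15, a glucocorticoid-responsive activator of these genes, changed by 0.75 ± 0.18 (SE, adjusted p = 0.0121) and Creb3l3 by 0.56 ± 0.12 (SE, adjusted p = 0.00845). Against HS, 5 were higher and 1 lower in Con-FMT, or 46.2% called against 23.6% of all genes. The mean of Cebpb was 2.87 times that of HS, and Foxo3 rose by 0.83 ± 0.14 (SE, adjusted p = 0.000909). Hnf4a, a central hepatocyte factor, was lower in A10-FMT than in Con-FMT (-0.70 ± 0.10 SE, adjusted p = 0.000363). Of 7 pericentral hepatocyte genes, 2 were higher and 0 lower in both HS compared with Con and A10-FMT compared with HS. The share called was 28.6% in each, against 17.7% and 23.1% of all genes. Cyp2e1 changed by 0.71 ± 0.13 (SE, adjusted p = 0.00273) and 0.80 ± 0.13 (SE, adjusted p = 0.00119). More of the list was called in Con-FMT, with 3 genes higher and 1 lower than in HS. That was 57.1%, against 23.6% of all genes. The lower gene there was Axin2, at -0.92 ± 0.13 (SE, adjusted p = 0.000297). Cyp2e1 again rose, by 0.58 ± 0.13 (SE, adjusted p = 0.00525).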

How the data were processed

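Liver mRNA was selected with oligo(dT) and sequenced, and the authors counted reads per gene and deposited RPKM values for 19057 genes in 18 libraries, to 2 decimals. The study's methods name SOAPaligner, and the submitters' processing notes list Bowtie 0.12.2 and mm10. RPKM is relative within a library, so a change in a few abundant genes moves all others. Dates stood in place of 26 symbols, and 0 columns belonged to samples outside the series. From the deposited RPKM values, log2(RPKM + 1) was fitted with limma 3.58.1 in R 4.3.3 over all 18 libraries, each of the 6 groups having its own mean and the prior variance following expression, for the 10204 genes averaging 1 RPKM or more. Benjamini-Hochberg adjusted p-values over all genes were called under 0.05. The procedure was tested on simulated data. The members and lists were chosen with earlier results of these data known. Values in every library are given for the 20 called members with the smallest adjusted p in any comparison, and for pathway neighbours at most the 2 called genes of largest change per list and comparison. Alternatives changed the pseudocount, the filter, the scaling, the samples fitted, the replicate block and the libraries left out. Sequences are from RefSeq on GRCm38.p6.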

Additional observations from a re-analysis of the deposited data

Results flagged for a closer look

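For 6 members the change after transfer of microbiota from AOS donors differed from that after transfer from control donors, each against the same 3 HS libraries, by the limma test of A10-FMT against Con-FMT (adjusted p under 0.05). These are 15.8% of the members, where 18.8% of all genes were called. The log2 difference was -1.46 for Got1, with -1.48 in A10-FMT and -0.02 in Con-FMT. For Tat it was -1.03, with -0.54 and 0.49, which are opposite in sign. The difference was -0.80 for Cps1 (-1.01 and -0.20), -0.59 for Aass (-0.69 and -0.10) and -0.49 for Kmo (-0.62 and -0.13). It was 0.68 for Afmid, with 0.18 in A10-FMT and -0.51 in Con-FMT. All 3 A10-FMT libraries lay below all 3 Con-FMT libraries for the first 5 and above them for Afmid. Con-FMT replicate 3 carried 3.67% pancreatic mRNA, and its part in these differences was not tested beyond leaving it out, which kept Got1, Tat, Aass and Afmid called and ended the calls of Cps1 (-0.60) and Kmo (-0.35).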

How the results depend on the processing

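For the 46 calls of single members, 780 values were recomputed under the alternatives that kept the 0.05 threshold, of which 626 stayed on the same side of the threshold, 154 no longer passed and 0 changed sign, and 21 of the 46 calls held under all of these. Under the stricter threshold below only Mat1a in HS, and Gldc in A10-FMT and in Con-FMT, were called. Leaving out 1 library at a time gave 9 to 15 members called in HS against Con, 10 to 16 in A10-FMT against HS, 5 to 14 in Con-FMT against HS, 3 to 7 in A10-FMT against Con-FMT, 0 to 8 in HS+A10 against HS, 0 to 1 in A10 against Con, 0 to 2 for the difference between the effects of AOS and 22 to 30 across the 6 groups. The share of all genes moved too, from 6.64% to 14.3% higher in HS, from 11.1% to 23.9% lower in A10-FMT and from 13.2% to 18% lower in Con-FMT. It ran from 7.22% to 11.4% lower in A10-FMT against Con-FMT and from 0.795% to 7.68% lower in HS+A10 against HS. The counts of members hold both directions. In the other direction the share was 0.725% to 1.66% lower in HS, 1.4% to 2.02% higher in A10-FMT and 3.23% to 4.26% higher in Con-FMT. Higher shares were 3.83% to 7.32% in A10-FMT against Con-FMT and 0.697% to 4.42% in HS+A10 against HS. Requiring an adjusted p no larger than 0.001 with a log2 change of 1 or more in size, the counts were 1, 1, 1, 0 and 0 for the first 5 of these comparisons. Of all genes, 0.274%, 0.127%, 0.519%, 0.157% and 0.0098% were then higher and 0.108%, 0.196%, 0.421%, 0.627% and 0.0098% lower, in the same order. Fitting only the groups compared gave 4 in Con-FMT against HS, 3 in A10-FMT against Con-FMT and 0 in HS+A10 against HS. Of all genes, 5.82%, 4.51% and 0.29% were then lower, and 1.78%, 2.34% and 0.445% higher. It ended the calls of Asl, Tat, Tdo2 and Kmo in HS, and of Cps1, Nags, Gls2, Kynu and Hal in A10-FMT. In Con-FMT it ended those of Ass1, Gls2, Hgd, Tdo2, Uroc1 and Cth, and in HS+A10 those of Nags and Cbs. The fit of 12 libraries and the fit with no filter each gave 3 in A10-FMT against Con-FMT, and the latter 1 in HS+A10 against HS. These members were all lower, where 8.94%, 6.36% and 1.81% of all genes were lower. In HS+A10 against HS, a mean of at least 5 RPKM and a fit with no variance trend each gave 4, and median and quantile scaling each gave 6. Of all genes, 3.45%, 2.98%, 5.67% and 5.89% were then higher and 6.11%, 4.4%, 3.49% and 4.43% lower, in that order. Without the middle libraries of Con and A10, an alternative chosen after seeing the data, the counts were 7 in HS against Con, 3 in A10-FMT against Con-FMT and 1 in HS+A10 against HS. For these counts the cause was not tested. Median scaling moved the median log2 change of the members from 0.32 to 0.13 in HS against Con and from -0.38 to -0.19 in A10-FMT against HS.

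Libraries of different groups share replicate numbers, and same-numbered libraries deviated together with correlations of -0.0932 to 0.262. The highest were 0.227 and 0.262, for numbers 1 and 3 in HS+A10 against HS. With 3 libraries a group these values cannot decide whether the numbers mark a pairing. With the replicate block the counts were 11, 15, 10, 6, 2 and 0 for the 6 comparisons in the order HS against Con, A10-FMT against HS, Con-FMT against HS, A10-FMT against Con-FMT, HS+A10 against HS and A10 against Con, and 23 across the 6 groups (56.1% of all genes with no block). Of all genes, 14.8%, 2%, 4.44%, 6.4%, 2.58% and 0.0294% were then higher in the 6 comparisons, in that order. Those lower made up 1.8%, 19.9%, 18.4%, 11.4%, 3.86% and 0.0196%. The block ended the calls of Asl in HS and Gls2 in A10-FMT. Between the transfer groups it ended that of Afmid and added Bhmt, and in HS+A10 it ended that of Cbs and added Tat. The number of reads per library is not known, and with 3 libraries a group the smallest exact permutation p would be 0.1, so single members were tested only in the fit across all genes.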

Other observations

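Among the pathway neighbours counted but not named above, Nnmt, which methylates nicotinamide with S-adenosylmethionine, was lower in A10-FMT and in HS+A10 than in HS by log2 values of -2.67 and -3.18, and Gamt, which makes creatine, was higher in A10-FMT at 0.91. The transcription factor Ppara was higher than in HS in A10-FMT (0.70) and in HS+A10 (1.07). Slc38a2, a carrier of neutral amino acids, was higher in Con-FMT than in HS at 1.19, and Slc6a6, the taurine carrier, was lower at -0.89. All passed an adjusted p of 0.05 in limma, and the same 3 HS libraries enter each comparison.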
